A study of Equus caballus with 3 samples.

Results

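*CGA*, the gene of the common alpha subunit of the glycoprotein hormones, was followed as a single row of 3 gene by cell tables of cultured equine mesenchymal stromal cells (MSCs). It was 1 of 29893 genes in the table of adipose tissue (AT), 29901 in that of bone marrow (BM) and 29882 in that of peripheral blood (PB). The gene was selected on its measured counts, which were higher in BM than in the other sources, so its levels by source are given as a description and carry no test. The cells came from the 3 tissues of 1 healthy Warmblood mare aged 10 years, with no treatment named in the labels and 1 library of the 10x Genomics 3′ kit per source, made after passaging in culture. Groups were taken from the sample titles, because the source field of all 3 samples names blood mononuclear cells. Each source was therefore 1 culture of 1 horse, and differences between sources cannot be told apart from differences between libraries.

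The alpha subunit encoded by *CGA* is shared by luteinising hormone, follicle-stimulating hormone and thyroid-stimulating hormone, and each hormone gains its identity from its own beta subunit, encoded by *LHB*, *FSHB* and *TSHB*. In the horse the *LHB* gene also supplies the beta subunit of the placental chorionic gonadotropin. A second pair of subunits, *GPHA2* and *GPHB5*, forms thyrostimulin. These hormones are known from the anterior pituitary and the placenta, and they act through the receptors *LHCGR*, *FSHR* and *TSHR*. In the deposited tables *CGA* and *LHB* were both assigned to the minus strand of chromosome 10 of EquCab3.0.

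After the limits of 2500 to 15000 UMIs (unique molecular identifiers, 1 per captured transcript) and at most 3% of UMIs on the mitochondrial chromosome, 5403 AT, 5580 BM and 5318 PB cells remained of 11757, 6455 and 6180 barcodes. Their median depth was 7291, 6874.5 and 7750 UMIs. Of the kept cells, 76 AT, 77 BM and 72 PB barcodes also occurred among the kept cells of another library. Without them *CGA* stood at 53.5 counts per 1000000 UMIs (CPM) in AT, 401 CPM in BM and 45.4 CPM in PB. All 5318 kept PB barcodes were present somewhere in another table, mostly among AT barcodes below 2500 UMIs. The cells were stromal by the markers listed for this check. All 11 stromal genes were detected in each source, among them *VIM* at 8751 CPM in AT, 11825 CPM in BM and 16594 CPM in PB. Of the 7 haematopoietic genes found, the common leukocyte gene *PTPRC* had 0 UMIs in every source, and *CD14*, *LYZ* and *CD79A* had 0 to 5. *CD34* had 0 in BM and PB and 26 in AT, *DRA* had 2 in AT and BM and 56 in PB, and *CD68*, a lysosomal protein best known from macrophages, had 444 in BM, 275 in AT and 202 in PB. The 5 endothelial genes together reached 0.100 CPM in AT, 0.0994 CPM in BM and 0.192 CPM in PB.

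*CGA* was detected in all 3 sources and was most abundant in BM-derived MSCs. The kept AT cells held 2128 *CGA* UMIs, or 53.2 CPM (exact 95% Poisson interval 51.0 to 55.5). The kept BM cells held 16181 UMIs, or 402 CPM (396 to 408). The kept PB cells held 1879 UMIs, or 45.1 CPM (43.1 to 47.2). BM thus stood well above AT and PB, which lay close together. By CPM the gene ranked 350 among 17915 genes with a UMI in BM, 2111 among 17242 in AT and 2511 among 17213 in PB. The BM level was 7.55-fold that of AT (7.22 to 7.91) and 8.91-fold that of PB (8.49 to 9.35). AT exceeded PB by 1.18-fold (1.11 to 1.26). These and all later intervals cover counting error only, and with 1 library per source the order of AT and PB cannot be separated from library differences.

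The share of cells with at least 1 *CGA* UMI was 17.7% in AT (956 cells, exact 95% binomial interval 16.7 to 18.7), 61.8% in BM (3450 cells, 60.5 to 63.1) and 17.6% in PB (938 cells, 16.6 to 18.7). When every cell was thinned to 2500 UMIs, the shares were 8.96%, 42.8% and 7.43%, so BM remained highest at equal depth. No cell type known to lack *CGA* was identified in the libraries. The lowest share within a cluster of cells, 5.18% in PB, belonged to a cluster with a median of 8233 UMIs per cell.

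**Figure D1:**
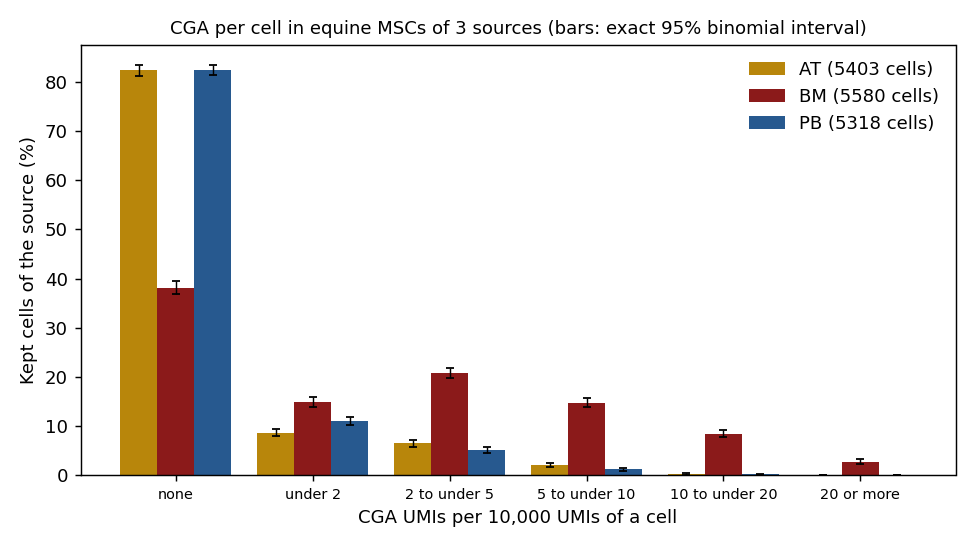
Share of kept cells (y axis, percent) by the number of *CGA* UMIs per 10,000 UMIs of the cell (x axis, 6 classes) in AT (5403 cells), BM (5580) and PB (5318), with exact 95% binomial intervals. Cells without a *CGA* UMI made up 82.3% of AT, 38.2% of BM and 82.4% of PB, and the classes from 5 upwards held mostly BM cells.

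Within BM, *CGA* ranged from 0 to 56 UMIs per cell. No UMI was found in 2130 BM cells, 923 cells had 1, 586 had 2 and 738 had 3 to 4. A further 771 cells had 5 to 9 UMIs, 358 had 10 to 19 and 74 had 20 or more. Cells became fewer from 0 to 1 to 2 UMIs, and a long tail followed. The wider classes above 2 UMIs cannot show whether there was a second peak. Per 10,000 UMIs, the BM median was 1.72, the 90th percentile 10.8, the 99th percentile 27.9 and the maximum 60.6. If every BM cell had carried *CGA* at the same rate, 8.27% of the cells would have been without a UMI by Poisson counting, against the 38.2% observed. The variance of UMIs per cell was 6.94 times the mean, whereas the median over 543 genes of 0.5 to 2 times its level was 1.62. Its depth-adjusted overdispersion ranked 10 among those 543 genes in BM, 11 among 2450 in AT and 21 among 2764 in PB. The 10% of cells with the most *CGA* held 46.9% of the *CGA* UMIs in BM, 80.5% in AT and 78.4% in PB. The gene was thus unevenly spread in all 3 sources, and rare strongly positive cells occurred in AT and PB as well, with up to 48 and 25 UMIs in a cell.

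Cells with 5 or more *CGA* UMIs per 10,000, called *CGA*-high here, numbered 1458 in BM (26.1%, 24.98 to 27.30), 135 in AT (2.50%) and 77 in PB (1.45%). The cut divides a continuous range, with 245 BM cells between 5 and 6 and 295 between 4 and 5, and the values nearest to it were 5.006 inside and 4.998 outside. The fewest *CGA* UMIs in a cell of this class were 2 in each source. At a cut of 10 per 10,000 the class held 632 BM cells. The *CGA*-high BM cells held 75.7% of all *CGA* UMIs of BM. Their median depth was 7189.5 UMIs, compared with 6210 in the 2130 BM cells without a *CGA* UMI, called *CGA*-none here.

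The beta subunits were nearly absent from all 3 cultures. In the AT cells 19 *LHB* UMIs were counted, and in BM and PB 25 each, never more than 1 in a cell. These 69 UMIs compare with 20188 *CGA* UMIs, or 34.2 *LHB* UMIs per 10,000 *CGA* UMIs. *LHB* did not follow *CGA* across sources, at 0.475 CPM (0.286 to 0.742) in AT, 0.621 CPM (0.402 to 0.917) in BM and 0.601 CPM (0.389 to 0.887) in PB, with overlapping intervals. An *LHB* UMI was present in 11 of 1458 *CGA*-high BM cells (0.754%, 0.377 to 1.35) and in 8 of 2130 *CGA*-none BM cells (0.376%, 0.162 to 0.739), and these intervals overlap. *TSHB* was seen as 4 single UMIs, 2 of them in BM. *FSHB* and *GPHB5* had 0 UMIs in the kept cells of every source, which allows up to 0.0750 CPM in AT, 0.0746 CPM in BM and 0.0721 CPM in PB (3 UMIs of each total). No separate chorionic gonadotropin beta symbol was found in the tables. The other alpha subunit, *GPHA2*, was counted 9, 17 and 10 times in AT, BM and PB. Among the receptors, *LHCGR* had 3 UMIs, all in 1 BM cell, and *FSHR* and *TSHR* had none. *TSHR* was assigned to a scaffold outside the numbered chromosomes, and how reads were counted there was not examined. *CGA* was the sole subunit gene above 1 CPM in any source.

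Pituitary markers were mostly absent, whereas most trophoblast markers had UMIs, many of them few. Of the 9 pituitary genes found in the tables, *POMC*, the precursor of corticotropin, had 34.5 CPM in AT, 29.9 CPM in BM and 30.4 CPM in PB, and *POU1F1* had 1 UMI in AT and 1 in BM. The other 7, among them *PRL*, *CHGA* and the gonadotropin-releasing hormone receptor *GNRHR*, had 0 UMIs. *POMC* differed little between *CGA*-high and *CGA*-none BM cells, at 29.1 and 29.3 CPM. Of the 10 trophoblast genes found, *TFAP2C* and *CDX2* had 0 UMIs. *TEAD4*, a transcription factor of the Hippo pathway that is not particular to trophoblast, was at 29.7 CPM in AT, 27.9 CPM in BM and 41.0 CPM in PB, most of the summed level in BM and PB. The keratin *KRT8* was at 45.4 CPM in AT but 1.22 CPM in BM, and *KRT7* at 5.73 CPM in AT, 2.68 CPM in BM and 0.360 CPM in PB. The trophoblast factor *GCM1* had 18 UMIs in AT and 1 each in BM and PB, *ELF5* had 45, 25 and 20 UMIs, and *HAND1* had 32, 6 and 1. The 10 genes summed to 83.9 CPM in AT, 34.7 CPM in BM and 42.0 CPM in PB. In BM the sum was 34.4 CPM in *CGA*-high and 33.7 CPM in *CGA*-none cells, with *TEAD4* at 26.5 and 29.7 CPM. Of the 7 with a UMI in these classes, 2 were 1.5-fold higher, *GATA3* (1.38) and *KRT8* (0.82, on 14 and 4 UMIs). None was lower, beside 955 higher and 613 lower of all 17153 genes with a UMI.

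Factors known to act on the *CGA* promoter were present in part. The cAMP-responsive factors *CREB1*, *ATF1* and *CREM* differed little between sources, with *CREB1* at 19.1 CPM in AT, 19.5 CPM in BM and 19.3 CPM in PB. *GATA2*, a zinc finger factor of the pituitary and placenta, was found at 25.1 CPM in AT, 20.8 CPM in BM and 5.93 CPM in PB. In BM it stood at 32.8 CPM in *CGA*-high and 9.77 CPM in *CGA*-none cells, a log2 ratio of 1.65 (counting bounds 1.45 to 2.04), and within clusters of cells the log2 ratio was 0.60. Between the classes of the other sources its log2 ratio was 2.28 in PB and -0.16 in AT. *GATA2* was left out of the counts given below, since it was found in 18.7% of *CGA*-high cells. *GATA3* had 83 UMIs in BM, 27 in AT and 1 in PB. *LHX3*, *NR5A1* and *TFAP2C*, which drive *CGA* in pituitary or trophoblast cells, had 0 UMIs in all sources. Of the 19 regulators listed, 3 passed the detection limit of 25% of cells (*CREM*, *JUN* and *NR3C1*), and none of these differed 1.5-fold between the BM classes, where 4.09% of all genes tested were higher and 2.76% lower. In PB 2 of 4 regulators tested were higher, beside 20.2% of all genes. At these shares, 3 genes say little. Without the limit, 3 of the 13 regulators with a UMI were 1.5-fold higher in BM, among them *GATA3* (1.38, on 34 and 8 UMIs) and *MSX1* (0.75), and *DLX3* was lower (-0.77), with a median of 0.14. Of all 17153 genes with a UMI, 955 were 1.5-fold higher and 613 lower. Ratios are of CPM + 1, so genes with very few UMIs could not reach 1.5-fold and hold these shares down. Of the 9 cAMP response genes with a UMI, *PDE4B* (1.19) was the 1 that was higher, at 2.94 and 0.735 CPM on 32 and 10 UMIs, and none was lower. Beside the same 955 and 613 of 17153 genes, 1 of 9 says little.

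*CGA* was higher in cells assigned to the S and G2M phases than in cells assigned to G1 in every source. In BM the levels were 337 CPM in G1 (330 to 344, 3758 cells), 514 CPM in S (499 to 530, 1022 cells) and 511 CPM in G2M (494 to 528, 800 cells). In AT they were 38.0, 69.8 and 81.2 CPM. In PB they were 26.4, 59.1 and 94.6 CPM. S and G2M did not differ in BM beyond their intervals. G1 cells made up 55.6% of the *CGA*-high and 81.3% of the *CGA*-none BM cells. *CGA*-high cells nonetheless occurred in each phase of BM, with 811 in G1 (21.6% of G1 cells), 365 in S (35.7%) and 282 in G2M (35.3%). Phases were scored from transcripts (40 of 43 S and 52 of 54 G2M genes were found) and were not measured in the cells.

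Unsupervised clustering, rebuilt after the study's settings, divided BM into 8 and PB into 10 clusters, which need not match the number or borders of the study's own. *CGA* entered the clustering, and its levels by cluster are therefore a description. Cluster borders in BM moved with minute changes of the input. The clustering was therefore repeated 3 times, with the mitochondrial percent rounded to 3 decimals, without rounding of the component scores, and without that rounding but with the mitochondrial percent at 9 digits. These repeats were chosen after seeing the data and gave 8, 8 and 7 BM clusters. *CGA* was highest in cluster 6 at 706 CPM (380 cells), led by the mitotic genes *CDKN3*, *CDC20* and *CDCA3*. In the repeats the cluster with these genes was again highest, at 630, 645 and 652 CPM. Clusters 3 (*TOP2A*, *CENPF* and *CLSPN*), 1 (*TAGLN3*, *CXCL12* and *CCL2*) and 4 (*CALCA*, *EMB* and *IGFBP5*) reached 569, 537 and 513 CPM. Cluster 4 had the highest share of cells with a *CGA* UMI, 92.6%, but also the highest median depth, 9467.5 UMIs, and 90.4% of its cells were called S or G2M. Only 14.4% of the cells of cluster 1 were called S or G2M. The borders of this mostly G1 cluster were not settled, and the repeats placed *TAGLN3* among the leading genes of clusters of 1172, 556 and 1451 cells at 563, 599 and 522 CPM. The lowest level was 123 CPM in cluster 0, led by *C15H2orf40*, *PLEKHA5* and *DPT* and with *ALPL* and *SP7* among its 10 leading genes, and it was lowest in the repeats as well, at 135, 124 and 128 CPM. Cluster 5 (*CDC42EP3*, *LMO7* and *WFDC1*) had 223 CPM. The highest cluster exceeded the lowest by 2.51 on the log2 scale, by 2.22 to 2.37 in the repeats and by 2.35 when *CGA* was left out of the genes used for clustering. Levels above 500 CPM were thus seen in clusters led by cell cycle genes, in the *CALCA* cluster of mostly S or G2M cells and in a mostly G1 cluster with *TAGLN3*.

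The spread of *CGA* also differed between BM clusters. In cluster 4 the variance of UMIs per cell was 3.79 times the mean, the lowest of the 8, and its median of 4.08 and 90th percentile of 10.7 per 10,000 lay close together. Cluster 1 had a lower median of 2.48 but a 90th percentile of 14.9, a variance of 7.63 times the mean and the cell with 56 UMIs. After rounding of the mitochondrial percent, the variance was 3.79 and 7.73 times the mean in the clusters led by *CALCA* and by *CXCL12*. In cluster 0 the median was 0, although 82 of its 1273 cells (6.44%) were *CGA*-high.

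**Figure D2:**
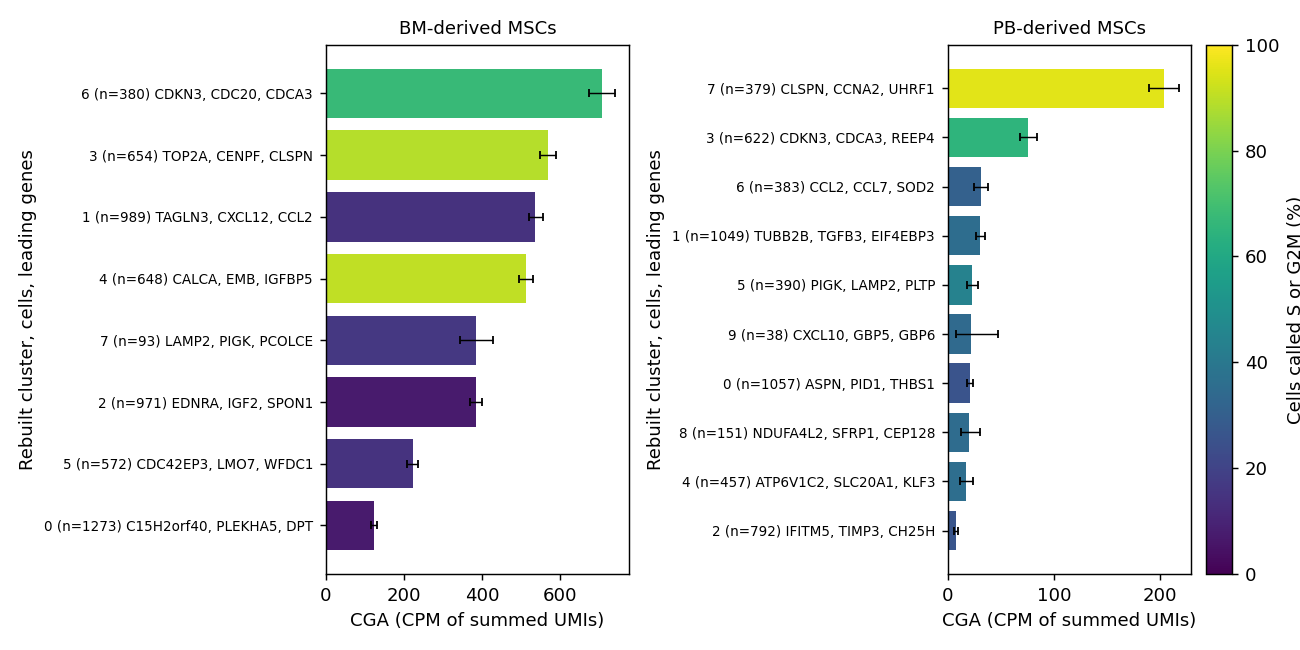
*CGA* level (x axis, CPM of the summed UMIs) in the rebuilt clusters of BM (left) and PB (right), with exact 95% Poisson intervals, the number of cells and 3 leading genes of each cluster, and colour for the percent of cells called S or G2M. BM ranged from 123 to 706 CPM over its clusters, and PB from 7.43 to 203 CPM, with the PB maximum in the cluster of 95.5% S or G2M cells.

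In PB, *CGA* was concentrated in cluster 7, led by *CLSPN*, *CCNA2* and *UHRF1* and with *ACTG2* among its 10 leading genes. This cluster of 379 cells had 203 CPM, 43.8% of the *CGA* UMIs of PB and 49 of its 77 *CGA*-high cells. Cluster 3, led by *CDKN3*, *CDCA3* and *REEP4*, had 75.7 CPM. The remaining clusters lay between 7.43 CPM in cluster 2, led by the bone gene *IFITM5*, and 30.9 CPM. After rounding, the cluster led by *UHRF1* and *CLSPN* had 199 CPM and that led by *IFITM5* 6.56 CPM. The highest PB cluster exceeded the lowest by 4.60 on the log2 scale, and by 3.36 at a clustering resolution of 0.4.

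The *CGA*-high and *CGA*-none BM cells were next compared for all other genes. Of 3079 genes found in at least 25% of the cells of either class, 126 (4.09%) were at least 1.5-fold higher and 85 (2.76%) at least 1.5-fold lower in *CGA*-high cells, and the median log2 ratio of all was 0.054. Of the 126, 61 were found in under 25% of the *CGA*-none cells and so passed that limit through the *CGA*-high cells alone, and of the 85, 28 passed through the *CGA*-none cells alone. Ratios are of CPM + 1 between summed UMIs of the classes, and cells of 1 library are not replicates, so no test was made. The same comparison within clusters, weighted to the clusters of the *CGA*-high cells, left 5 higher and 12 lower genes. In the 3 repeats of the clustering it left 5, 5 and 4 higher and 11, 14 and 9 lower genes. Restricted to G1 cells it gave 33 higher and 42 lower genes of 2795 tested, and after thinning to 2500 UMIs 9 higher and 12 lower of 1245, with the classes set anew on the thinned counts (1253 *CGA*-high and 3191 *CGA*-none cells, the latter including cells with *CGA* UMIs before thinning). Matching the *CGA*-none cells to the depth of the *CGA*-high cells left 108 higher and 74 lower genes. The clusters were built from variable genes of these same cells. Weighting by cluster thus evens the genes that define the clusters, in part by construction. The detection limit also left fewer genes to test in G1 cells and after thinning, so genes could leave these counts without a smaller ratio. In G1 cells *LDB2* (1.25), *CDCA3* (0.93), *FABP5* (0.90), *CDKN3* (0.83), *ANLN* (0.83), *PBK* (0.80) and *MCM5* (0.69) were past 1.5-fold but were not among the 33. Phases were scored from cell cycle genes, so keeping G1 cells evens such genes in part by construction. The part of phase, cluster and depth in the differences was not tested beyond these recounts.

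Genes higher in *CGA*-high BM cells were led by *ACTG2*, the smooth muscle gamma actin, at 308 CPM compared with 61.5 CPM (log2 ratio 2.31, counting bounds 2.21 to 2.44). *ACTG2* was found in 43.7% of *CGA*-high and 15.4% of *CGA*-none cells. Genes without a symbol are counted but not named, and 1 of them ranked second (2.18). Next among genes with a symbol came *MCM5*, a subunit of the replicative helicase, at 60.5 and 17.1 CPM (1.76), and *FABP5*, a fatty acid binding protein, at 106 and 34.2 CPM (1.61). *UBE2C*, which marks mitotic cyclins for destruction, stood at 202 and 67.7 CPM (1.56). *BIRC5*, *CDCA3*, *ANLN*, *PBK* and *CDKN3*, all genes of mitosis and cytokinesis, had log2 ratios of 1.51, 1.51, 1.45, 1.39 and 1.28. The other 3 of the leading 12 genes with a symbol were *LDB2*, a cofactor of LIM domain proteins (1.41), *F3*, the coagulation initiator tissue factor (1.34), and *TAGLN3*, of the actin-associated transgelin family (1.31). All 12 were found in under 25% of the *CGA*-none cells and passed the detection limit through the *CGA*-high cells alone, so the make-up of the 12 is a description. *ACTG2* has close relatives among the actin genes, *ACTA2* included, and how the counting divided reads between them was not examined.

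Among genes lower in *CGA*-high BM cells, *LENEP* had the lowest ratio, at 11.6 compared with 112 CPM (log2 ratio -3.16, counting bounds -3.54 to -3.004), and was found in 5.14% and 29.2% of the cells. *ALPL*, the alkaline phosphatase of mineralising cells, stood at 46.5 and 156 CPM (-1.73). *CTSK*, the collagen-degrading cathepsin K, stood at 264 and 745 CPM (-1.49). *SERPINF1*, the secreted pigment epithelium-derived factor, stood at 40.5 and 115 CPM (-1.49). The growth factors *TGFB1* and *IGF2* had log2 ratios of -1.41 and -1.38. The remaining genes of the lowest 12 with a symbol were *ITGBL1* (-1.91), the stress-induced *NUPR1* (-1.59), the syndecan *SDC2* (-1.47), *ISLR* (-1.31), the carbonic anhydrase *CA2* (-1.22) and *LBH* (-1.18). Of these 12, 9 passed the detection limit through the *CGA*-none cells alone, the exceptions being *SDC2*, *CTSK* and *NUPR1*.

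**Figure D3:**
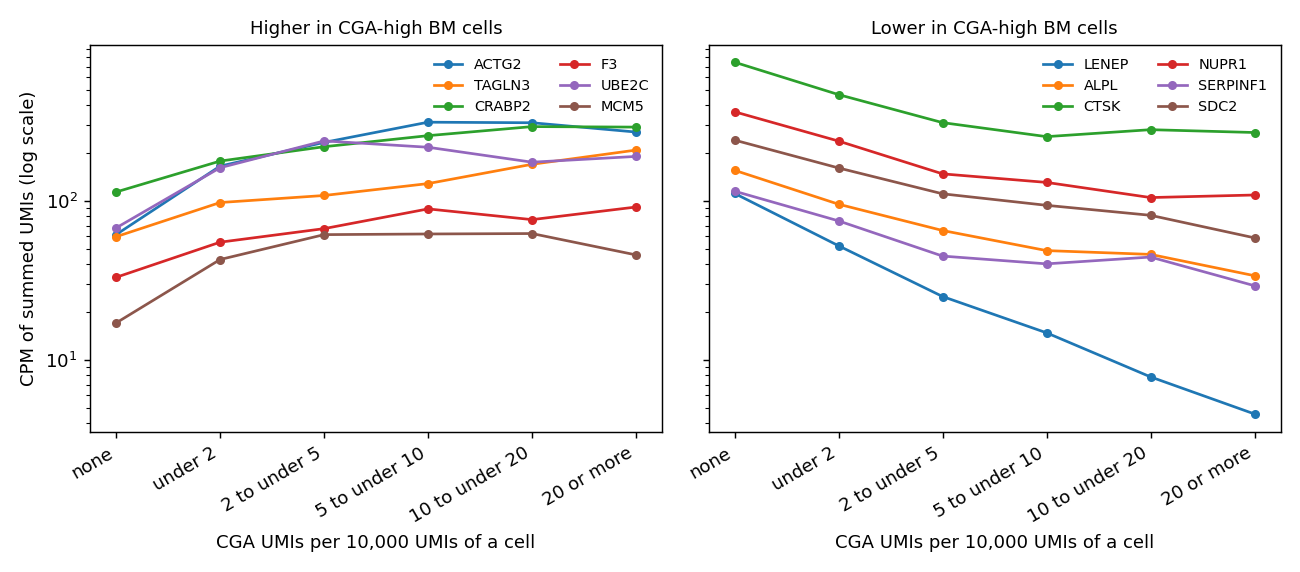
Levels (y axis, CPM of summed UMIs, log scale) of 6 genes higher (left) and 6 genes lower (right) in *CGA*-high BM cells, over 6 classes of *CGA* UMIs per 10,000 UMIs of a cell (x axis). *LENEP* went from 112 CPM in cells without a *CGA* UMI to 4.58 CPM in cells with 20 or more, whereas *MCM5* and *UBE2C* were highest in the middle classes.

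Across 6 classes of *CGA* level in BM, the leading genes followed *CGA* in different ways. *TAGLN3* was higher in each successive class, at 59.6, 97.8, 108, 129, 170 and 209 CPM from cells without a *CGA* UMI to the 157 cells with 20 or more per 10,000. *CCL26*, the eosinophil chemokine eotaxin-3, did the same, from 159 to 469 CPM. The cell cycle genes levelled off early, as *UBE2C* stood at 67.7 CPM without *CGA*, 239 CPM at 2 to 5 per 10,000 and 191 CPM at 20 or more. *MCM5* likewise was 17.1 CPM in the lowest class, 61.4 CPM at 2 to 5 and 45.8 CPM in the highest. *ACTG2* was 61.5 CPM without *CGA*, peaked at 313 CPM at 5 to 10 and was 271 CPM in the highest class. Among the genes at the lower end, *LENEP* and *IGF2* were lower in each successive class, *IGF2* from 162 to 39.4 CPM, while *CTSK* differed little above 5 per 10,000, at 254, 281 and 269 CPM.

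Differences that were present within clusters involved few genes. The 5 higher genes were *CRABP2* (0.86), *ACTG2* (0.75), *TAGLN3* (0.69), *F3* (0.65) and *FIBIN* (0.63), and in 1 repeat of the clustering *F3* was no longer among them. *FIBIN* and the grouping itself were picked out after the values were seen. *CRABP2*, a carrier of retinoic acid, stood at 272 CPM in *CGA*-high and 114 CPM in *CGA*-none cells, a whole-library log2 ratio of 1.25. All 5 were also among the 126 genes of the whole comparison, and 10 of the 12 lower genes were among its 85. The lowest were *LENEP* (-2.45), *IGF2* (-1.40), *ITGBL1* (-0.98) and *CTSK* (-0.92). The mitotic genes were close to even within clusters, with *UBE2C* at 0.016, *BIRC5* at -0.087 and *PBK* at -0.089. Some clusters were themselves led by cell cycle genes, so this evenness is in part built in. The signs of *UBE2C*, *BIRC5*, *PBK* and of *ISLR* (0.045) differed between repeats of the clustering. In G1 cells *ACTG2* (2.08), *TAGLN3* (1.64), *CCL26* (1.33), *CRABP2* (1.30) and *F3* (1.29) were again among the higher genes. The mitotic and replication genes were less far apart than in all cells, with *CDCA3* at 0.93, *CDKN3* at 0.83, *ANLN* at 0.83, *PBK* at 0.80, *MCM5* at 0.69, *UBE2C* at 0.49 and *BIRC5* at 0.38. Phases were scored from S and G2M genes, *MCM5*, *UBE2C*, *BIRC5*, *CDCA3* and *ANLN* among them. The smaller ratios of such genes in G1 cells are thus in part built in. Of the 33 genes higher in G1 cells, 23 were among the 126, and of the 42 lower genes, 37 were among the 85.

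The listed gene groups were counted in the same comparison. Of 13 proliferation genes in the tables, 6 passed the detection limit, 5 of them through the *CGA*-high cells alone, so that their being higher was in large part fixed by the limit. Without the limit, the log2 ratios of all 13 lay between 0.99 and 1.76 with a median of 1.48, and 955 of all 17153 genes with a UMI were at least 1.5-fold higher. Many of the 17153 had too few UMIs to reach 1.5-fold in a ratio of CPM + 1, so that share is not one of genes at like levels. The summed level of the 13 was 1153 CPM in *CGA*-high and 447 CPM in *CGA*-none cells. The median of the 6 was 0.0038 within clusters, some of which were themselves led by cell cycle genes. Among 8 genes of the CCN family and YAP targets that passed, 3 were higher, among them *F3* (1.34) and the matrix protein *THBS1* (0.63), none was lower and the median was 0.35, beside 4.09% of all genes higher. *F3* passed the limit through the *CGA*-high cells alone. Within clusters 1 of the 8 was higher and the median was 0.030. *CTGF*, the best known gene of this group, was at 203 CPM in both classes. Among 11 smooth muscle contractile genes, *ACTG2* (2.31) and the calponin *CNN1* (0.98) were higher and the median was 0.35, beside 4.09% of all genes higher. *ACTG2* and *LMOD1* passed the limit through the *CGA*-high cells alone. Within clusters 1 of the 11 was higher (median 0.22). In AT 1 was higher (median 0.042), beside 8.37% of all genes, and in PB 7 (median 0.73), beside 20.2%. Of the 11 tested in PB, 3 passed the limit through the *CGA*-high cells alone. In BM *ACTA2*, the alpha actin of smooth muscle, stood at 880 and 651 CPM, a log2 ratio of 0.43. None of the 10 stromal genes passed 1.5-fold in either direction, with a median of -0.21. Beside 4.09% of all genes higher and 2.76% lower, none of 10 says little. Of the osteoblast list, *SPARC* (-0.022) and *ALPL* (-1.73) passed the detection limit, *ALPL* through the *CGA*-none cells alone. The rarer genes of that list also had lower values in *CGA*-high cells, with the mineral-binding *IBSP* at 8.10 and 72.3 CPM, *SPP1* at 3.13 and 35.6 CPM and the transcription factor *SP7* at 12.5 and 38.3 CPM. Within clusters the log2 ratios were smaller, at -0.91 compared with -3.01 for *IBSP*, -1.30 compared with -3.15 for *SPP1*, -0.63 compared with -1.54 for *SP7* and -0.75 compared with -1.73 for *ALPL*. None of the 4 immediate early genes tested passed 1.5-fold, and the median was -0.095. Beside the same shares of all genes, none of 4 says little. Without the limit, 1 of the 7 immediate early genes with a UMI was lower, *ATF3* (-0.94, on 54 and 142 UMIs), and none was higher. Of all 17153 genes with a UMI, 613 were lower.

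*CGA* was itself among a group of genes high in BM, and the others of that group stood on either side of even in its *CGA*-high cells. Of 6 further genes of that kind, *TAGLN3* was higher in *CGA*-high cells and *JAM2*, a junctional adhesion molecule, was lower (354 and 555 CPM, log2 ratio -0.65). Within clusters the log2 ratio of *JAM2* was -0.29, and none of the 6 was 1.5-fold lower within clusters or in G1 cells. The other 4, *FAM20A*, *COL8A1*, *WDR86* and *MGLL*, had log2 ratios of -0.54 to -0.022. This list was drawn from genes already known to be high in these BM cells.

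The genes most alike to *CGA* over the 5580 BM cells, by the Pearson correlation of log-transformed UMIs per 10,000, were *S100A6* (0.31), *S100A5* (0.31), *CRABP2* (0.26), *ACTG2* (0.26) and *CCL26* (0.25). *HSPB1* (0.24), *NME1* (0.24), *HMGB1* (0.23), *HNRNPA2B1* (0.22) and *PFN1* (0.22) completed the 10. All these correlations were weak, and the cells share 1 library and differ in depth and phase. *S100A6*, a calcium-binding protein, stood at 5834 CPM in *CGA*-high and 4087 CPM in *CGA*-none cells. *S100A5* stood at 10622 and 7544 CPM. Both are members of the S100 gene family, and how the counting assigned reads between them was not examined. The genes beside *CGA* on its chromosome in RefSeq order (assembly TB-T2T, used for order only) were *SNX14*, *SYNCRIP* and *HTR1E* on one side and *ZNF292*, *GJB7* and *SMIM8* on the other. Their log2 ratios between the BM classes ranged from -0.12 for *SNX14* to 0.36 for *ZNF292*, and *HTR1E* and *GJB7* had at most 1 UMI in BM. Across sources, *ZNF292* stood at 30.7 CPM in AT, 43.7 CPM in BM and 35.2 CPM in PB, *SNX14* at 11.4, 15.9 and 10.3 CPM, *SYNCRIP* at 1.53, 2.63 and 1.73 CPM, and *SMIM8* at 15.9, 17.3 and 21.4 CPM. The first 3 were thus also highest in BM, by less than *CGA*.

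The genes chosen in BM were then examined in the cells of the other sources, where *CGA*-high cells numbered 77 in PB and 135 in AT. PB *CGA*-high cells had a median of 9509 UMIs and PB *CGA*-none cells 7567, while the AT classes had 7251 and 7200. G1 cells made up 23.4% of the *CGA*-high and 63.2% of the *CGA*-none cells in PB, and 42.2% and 60.0% in AT. No recount by phase or cluster is given for PB or AT, so the part of phase there was not tested. In PB, 707 of 3499 genes tested (20.2%) were 1.5-fold higher and 330 (9.43%) lower in *CGA*-high cells. In AT, 244 of 2914 (8.37%) were higher and 65 (2.23%) lower. Of the higher genes, 360 of 707 in PB and 112 of 244 in AT passed the detection limit through the *CGA*-high cells alone. Of the lower genes, 89 of 330 and 27 of 65 passed it through the *CGA*-none cells alone. The limit thus favours the same direction in each source, and the counts that follow are a description. Of 116 genes higher in BM and tested in PB, 98 were 1.5-fold higher there and 112 had a ratio above 0, compared with 59.5% of all 2920 genes tested in both sources. Of 108 tested in AT, 61 were 1.5-fold higher and 102 had a ratio above 0, compared with 69.1% of all 2683. For the genes lower in BM, 48 of 75 were 1.5-fold lower in PB and 8 of 48 in AT. Of 101 genes higher in BM and tested in all 3 sources, 58 passed 1.5-fold in each, and 6 of 45 of the lower genes did so. Cell cycle genes such as *BIRC5*, *CDCA3*, *CDKN3* and *UBE2C* were among the 58. Of all 2619 genes tested in the 3 sources, 119 (4.54%) were 1.5-fold higher in both PB and AT, and 23 (0.878%) were lower in both.

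**Figure D4:**
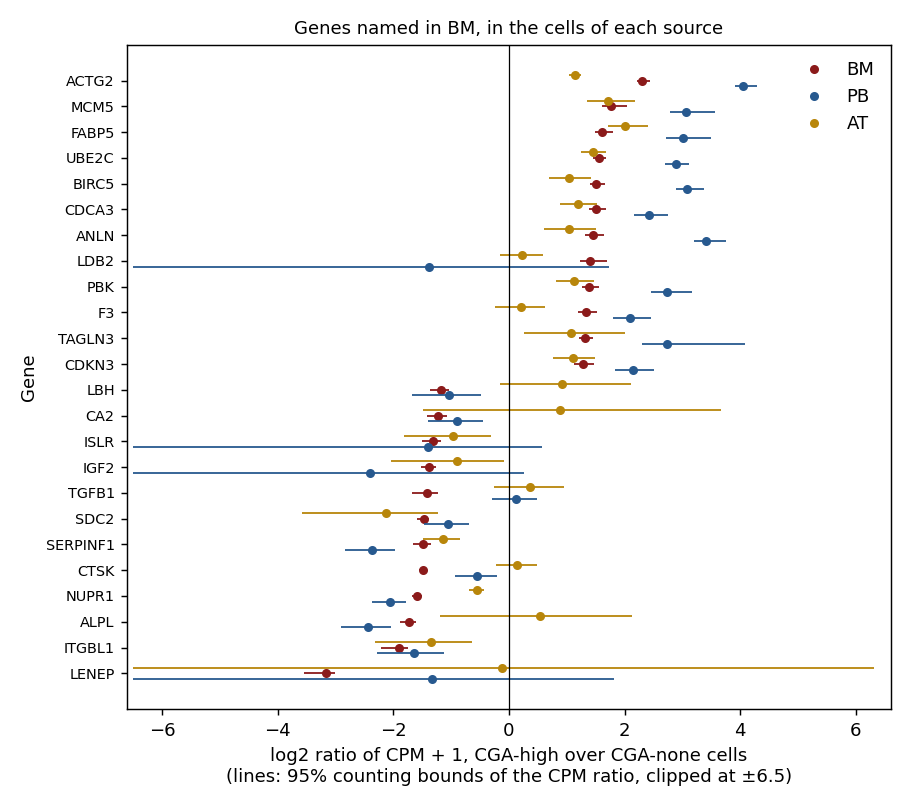
Log2 ratio of CPM + 1 between *CGA*-high and *CGA*-none cells (x axis) of the 12 highest and 12 lowest genes with a symbol in BM (y axis), in BM, PB and AT, with 95% counting bounds as lines. *ACTG2* was higher in all 3 sources (2.31 in BM, 4.05 in PB and 1.14 in AT), while *CTSK* was lower in BM (-1.49) and near 0 in AT (0.14).

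*ACTG2* had the highest ratio of these genes in PB, at 439 CPM in *CGA*-high and 25.5 CPM in *CGA*-none cells (log2 ratio 4.05, 3.91 to 4.29), and in AT it stood at 807 and 365 CPM (1.14, 1.04 to 1.25). *CCL26* was likewise higher in all 3 sources, with log2 ratios of 1.08 in BM, 3.08 in PB and 2.48 in AT. The 13 proliferation genes, without the detection limit, had log2 ratios of 1.74 to 3.08 in PB and 0.60 to 2.05 in AT. Of the 10 and 5 that passed the limit, 9 and 4 did so through the *CGA*-high cells alone. In PB 6 of 9 stromal genes were lower and 1 was higher (median -0.69), beside 9.43% of all PB genes lower and 20.2% higher, with summed levels of 22383 CPM in *CGA*-high and 39901 CPM in *CGA*-none cells. In AT 1 of 10 was lower and 1 higher (median -0.27), beside 2.23% and 8.37% of all genes. *SERPINF1* was lower in each source, at -1.49 in BM, -2.36 in PB and -1.15 in AT. *ALPL* was lower in BM (-1.73) and PB (-2.43), whereas in AT it was scarce, at 4.06 and 2.48 CPM, and the counting bounds of its ratio included 0. Of the rarer osteoblast genes in PB, *SP7* (0.53) and *SPP1* (0.24) stood above 0, whereas *RUNX2* (-0.38), *IBSP* (-0.88) and *IFITM5* (-3.02) stood below. *CRABP2* went the other way in PB, at 312 CPM in *CGA*-high and 537 CPM in *CGA*-none cells (-0.78, -0.98 to -0.59). *LENEP*, *IGF2* and *LDB2* each had 0 UMIs in the 77 PB *CGA*-high cells and at most 4.31 CPM in the *CGA*-none cells, so their ratios there could not be read.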

How the data were processed

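Cultured MSCs from 3 tissues of 1 mare were profiled by 3′ single-cell RNA sequencing, with 1 library per source. The values used are UMI counts per gene and cell as deposited by the authors, who mapped reads to EquCab3.0 with Cell Ranger and recounted them with a 3′ end tool that adds reads just downstream of genes, leaves out overlapping exons of opposite strands and merges duplicated features. The authors called multiplets with DoubletDetection, and whether these barcodes are still in the tables was not given. No doublets were removed here, and an alternative dropped the cells with the top 5% of Scrublet scores.

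Here, kept barcodes had 2500 to 15000 UMIs, no more than 3% of them mitochondrial. Kept libraries held 39980656 (AT), 40239295 (BM) and 41622445 (PB) UMIs, and 3 UMIs equal 0.0750, 0.0746 and 0.0721 CPM. Summed counts are CPM with exact Poisson intervals, shares have Clopper-Pearson intervals, and ratios of CPM + 1 have exact conditional Poisson bounds of the CPM ratio. The level is 95%. No test was made, since cells of 1 library are not replicates. BM and PB were clustered with Seurat 5.3.0 and sctransform 0.4.2 (R 4.3.3; 3000 variable genes, mitochondrial percent and phase difference regressed out, 23 and 20 components, resolution 0.6), versions later than those of the study. Component scores were rounded to 5 decimals, a step added after seeing the data because changes in the last digits of the input had moved BM cluster borders. Sums were computed in Python 3.11.15 with SciPy 1.17.1, and Scrublet came from Scanpy 1.11.5. Library factors for 1 alternative came from edgeR 4.0.16. The ratio, bounds and thinning were tested on simulated counts.

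Named genes were *CGA*, among genes with a symbol the 12 highest and 12 lowest log2 ratios between *CGA*-high and *CGA*-none BM cells, the 10 genes with a symbol most correlated with *CGA*, its 3 neighbours on each side and members of fixed lists. Some list members are not reported here. Members and lists were chosen with earlier results of these data known. No sequence is shown, since none was given for this build.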

Additional observations from a re-analysis of the deposited data

Results flagged for a closer look

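*CRABP2* was higher in the *CGA*-high cells of BM and lower in those of PB, with a log2 ratio of -0.78 in PB compared with 1.25 in BM, and its counting bounds lay on opposite sides of 0. The difference was not tested, since each source is 1 library.

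*CGA* UMIs were also present in barcodes below 2500 UMIs, which entered only the alternative with all barcodes of at least 500 UMIs. *CGA* stood at 66.6 CPM in those of AT (6155 barcodes), 253 CPM in those of BM (526) and 30.4 CPM in those of PB (554). Of the AT barcodes below 2500 UMIs, 5711 also occurred in PB and held 55.3 CPM, and the other 444 held 157 CPM (127 to 192).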

How the results depend on the processing

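BM stood above AT and PB in *CGA* level under every alternative tried. The log2 ratio of BM over AT, 2.89, was 3.11 in G1 cells, 2.82 with all barcodes of at least 500 UMIs, 2.45 with a pseudocount of 25 CPM and 2.63 with TMM factors. That of BM over PB, 3.13, was 3.62, 2.93, 2.61 and 2.91 under the same alternatives, 2.95 without the upper UMI limit and 3.24 as a mean of single-cell CPM. The share of cells with a *CGA* UMI in AT, BM and PB was 13.6%, 53.9% and 13.0% in G1 cells, 8.96%, 42.8% and 7.43% after thinning to 2500 UMIs, and 8.40%, 45.3% and 6.88% for 2 or more UMIs. With barcodes of at least 500 UMIs it was 11.7% in AT and 59.8% in BM, and without the upper limit 18.9% in PB. The *CGA*-high BM cells numbered 811 in G1 and 632 at a cut of 10 per 10,000. Leaving out high Scrublet scores, shared barcodes or the mitochondrial limit moved none of these ratios or shares beyond its counting interval.

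The 126 higher and 85 lower genes became 5 and 12 within clusters, 5 and 11, 5 and 14, and 4 and 9 within the clusters of the 3 repeats (mitochondrial percent at 3 decimals, component scores without rounding, and these scores with mitochondrial percent at 9 digits, all chosen after seeing the data), 13 and 21 against all other cells, 69 and 43 with a pseudocount of 25 CPM, 33 and 42 in G1 cells, 9 and 12 after thinning, 39 and 21 at a fold of 2, and 955 and 613 when all 17153 genes with a UMI were tested. Thinning left 1245 genes to test and G1 cells 2795, so some genes left these counts because they were no longer tested. Of 33 named genes, 32 moved beyond their counting bounds within clusters, 33 against all other cells, 31 after thinning, 29 in G1 cells and 19 at a cut of 10 per 10,000. Matching the *CGA*-none cells for depth moved 14 of the 33, and dropping the upper UMI limit moved 3. Within clusters *BIRC5* (-0.087), *PBK* (-0.089) and *ISLR* (0.045) changed sign, as did *BIRC5* (-0.052) and *PBK* (-0.062) in the first repeat, *ISLR* (0.071) in the second, and *UBE2C* (-0.0048), *BIRC5* (-0.080), *PBK* (-0.077) and *ISLR* (0.062) in the third. The log2 range of *CGA* over clusters, 2.51 in BM and 4.60 in PB, was 1.91 and 3.36 at a resolution of 0.4. In BM it was 2.39 at a resolution of 0.8, 2.35 with *CGA* left out of the clustering genes and 2.22, 2.37 and 2.33 in the repeats. Cells per cluster and ratios near 0 within clusters are thus uncertain. No paired analysis was possible because each group is 1 library and no result comes from a test. Depth limits the scarce genes most, as the beta subunits rest on 0 to 25 UMIs per source.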
